A study of Gallus gallus with 12 samples.

Results

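Purine synthesis and uric acid genes were followed in the liver and abdominal fat of chickens on a high-fat diet (HN) and on a normal diet (NN). The set was chosen by name, as the enzymes that build IMP (PPAT, GART, PFAS, PAICS, ADSL and ATIC), those that make GMP, salvage purines and make urate (IMPDH2, HPRT1 and XDH) and glutamine synthetase (GLUL). Of these 10 genes, 9 were found among the 18332 genes measured, and PFAS was not analysed here. Each of the 9 matched 1 gene identifier. HN birds and NN birds were Xinghua chickens labelled 8 weeks old, the age at which the study's methods say the feeding began, with tissues taken at its end. They carry no engineered allele in their labels, and the study describes them as females of normal size. The study's methods give the high-fat feed much more fat, and slightly less protein and carbohydrate, than the normal feed. Effects of fat and of protein in the feed therefore cannot be told apart here. There were 3 libraries of HN liver, 3 of NN liver, 3 of HN abdominal fat and 3 of NN abdominal fat, 12 in all. The study's methods give 3 livers and 3 abdominal fats to each group, so the libraries of a group come from separate birds. Dwarf birds of the same strain were not analysed here.

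Birds excrete most of their waste nitrogen as uric acid, and the chicken liver does this by building purines. PPAT starts the pathway by moving the amide nitrogen of glutamine onto PRPP, an activated ribose. GART, PFAS, PAICS, ADSL and ATIC then assemble the purine ring stepwise to IMP, the parent of AMP and GMP, and the breakdown of IMP gives hypoxanthine, which XDH oxidises to xanthine and on to urate. Birds lack a working urate oxidase, so urate is the end product, and in avian liver cells glutamine synthetase acts in the mitochondrion and traps ammonia as glutamine for this route. Pigeon and chicken livers were the material in which much of the pathway was first worked out.

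Values are FPKM (fragments per kilobase of transcript and per unit of mapped fragments), which are scaled for length and library size, so that levels of different genes can be set side by side. The number of reads behind a value is unknown from the files. Summed FPKM was 600830 to 642100 in HN livers, 571230 to 582890 in NN livers, 476110 to 494850 in HN fats and 472620 to 504510 in NN fats. Of 12 hepatocyte markers, all were found and none was at 0 throughout, and their summed level was 100080 to 102590 FPKM in HN livers, 100610 to 108280 in NN livers, 3564 to 7863 in HN fats and 8638 to 10605 in NN fats. CPS1 was the one marker of that list that was nearly absent from liver, at 0.16 to 0.53 FPKM. Of 8 adipocyte markers, 7 were found, with summed levels of 264 to 339 FPKM in HN livers, 191 to 236 in NN livers, 14630 to 17154 in HN fats and 15768 to 20060 in NN fats. The HN libraries numbered 2 stood apart in both tissues, with the lowest mean correlation to the other libraries of their tissue (0.947 in liver and 0.948 in fat). These are bulk samples, in which fewer cells of a type and less RNA per cell cannot be told apart.

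The IMP enzymes, IMPDH2, XDH and GLUL were all higher in liver than in fat on both diets, and HPRT1 was lower in liver. ATIC led the set in every group of libraries. XDH, at the urate end of the route, had a liver-over-fat ratio of 37.0 in HN birds and 67.9 in NN birds, and ATIC 22.8 in HN birds and 30.4 in NN birds. Without the HN liver numbered 2 the ratio of XDH in HN birds was 21.2, below that of ATIC (24.1). All 9 genes passed the test of liver against fat on both diets, which was limma on log2(FPKM + 1) with adjustment over all tested genes. Livers and fats entered it as independent libraries. Of all tested genes 8202 of 12511 passed in HN birds and 9491 of 12492 in NN birds.

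**Figure D1:**
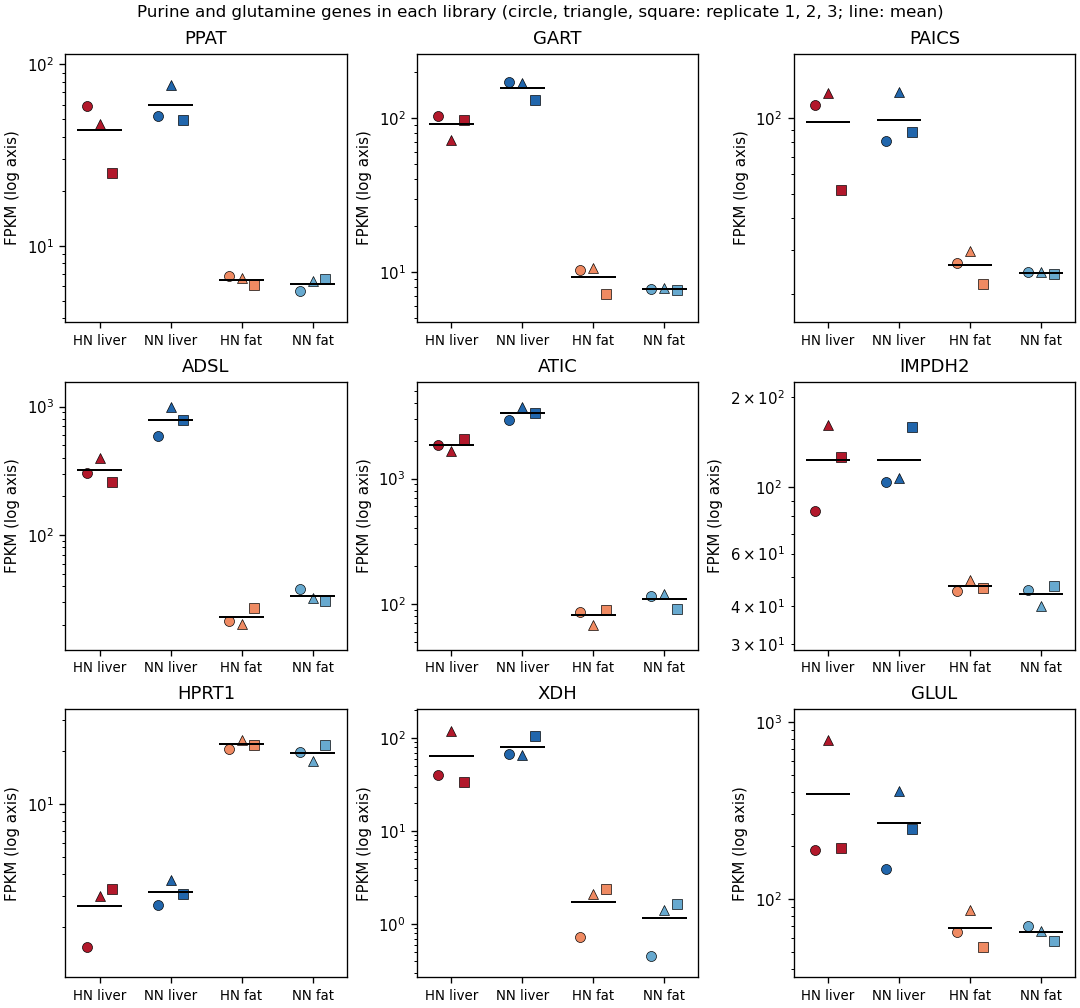
FPKM (log axes) of the 9 measured genes in each library, by group, with a circle, triangle and square for replicates 1, 2 and 3 and a line at the group mean. Every liver lies above every fat for 8 genes, while HPRT1 lies at 1.54 to 3.72 FPKM in livers and 17.56 to 23.27 FPKM in fats.

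PPAT, which commits PRPP to purine synthesis, had 58.6, 46.8 and 25.2 FPKM in HN livers, 51.6, 76.9 and 49.4 in NN livers, 6.79, 6.66 and 6.12 in HN fats and 5.64, 6.37 and 6.54 in NN fats. Every liver was above every fat, and the lowest liver was the HN library numbered 3. The difference was 2.48 ± 0.298 on the log2 scale in HN birds (SE, limma adjusted p = 0.000323) and 3.04 ± 0.179 in NN birds (adjusted p = 4.8e-06). GART, a single protein with 3 activities of the pathway, had 104, 72.4 and 97.8 FPKM in HN livers, 172, 170.0 and 131 in NN livers, 10.2, 10.5 and 7.18 in HN fats and 7.75, 7.85 and 7.59 in NN fats. Livers were 9.81-fold above fats in HN birds and 20.4-fold in NN birds, and the 3 NN fats had an SD of 0.131 FPKM. PAICS, which carries out the carboxylation and the aspartate step that precede ADSL, had 112, 125 and 52.0 FPKM in HN livers, 80.8, 126 and 88.3 in NN livers, 26.5, 29.6 and 22.0 in HN fats and 24.5, 24.5 and 24.0 in NN fats. Its livers and fats did not overlap, but the ratio was smaller, 3.71 in HN birds and 4.04 in NN birds. As for PPAT, the lowest liver was the HN library numbered 3.

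PPAT and PAICS lie side by side on chromosome 4 of the GRCg7b annotation and their spans overlap there, and in chicken they are transcribed away from each other out of a shared promoter region. The level of PAICS over that of PPAT was 1.92 to 2.67 in livers of HN birds and 1.57 to 1.79 in livers of NN birds, against 3.6 to 4.44 in HN fats and 3.68 to 4.35 in NN fats. GART overlaps SON and a second GART-like gene (GART-B) in that annotation. SON had 9.04 to 29.86 FPKM over the 12 libraries, highest in fat, and GART-B at most 0.17 FPKM. GLUL overlaps RGSL1, which had at most 0.35 FPKM. The sources used here do not say whether counting used strand, so reads in the shared stretches of such genes cannot be assigned with certainty.

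ADSL acts both in the making of IMP and in the branch from IMP to AMP. It had 306, 399.8 and 259 FPKM in HN livers, 592, 989 and 782 in NN livers, 21.5, 20.2 and 27.1 in HN fats and 37.7, 32.6 and 30.4 in NN fats. In both tissues all HN values lay below all NN values. Its liver-over-fat difference was 3.74 ± 0.208 on the log2 scale in HN birds (adjusted p = 8.7e-06) and 4.49 ± 0.193 in NN birds (adjusted p = 1.1e-06). ATIC, which adds the last carbon and closes the ring to IMP, had 1849, 1643 and 2053 FPKM in HN livers, 2916, 3732 and 3308 in NN livers, 85.6, 68.4 and 88.9 in HN fats and 115, 120.5 and 91.4 in NN fats. It ranked 31 to 41 among all genes in livers of HN birds and 15 to 20 in livers of NN birds, against 758 to 1057 in HN fats and 518 to 765 in NN fats. The liver-over-fat difference of ATIC was 4.50 ± 0.172 in HN birds (adjusted p = 1.7e-06) and 4.92 ± 0.149 in NN birds (adjusted p = 2.1e-07).

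Summed over the 5 measured IMP enzymes, HN livers held 2401 ± 103 FPKM, NN livers 4422 ± 643, HN fats 146 ± 9.03 and NN fats 181 ± 18.1 (SD, n = 3 each). ATIC alone made up 71.8% to 82.6% of that sum in livers of HN birds and 73.3% to 76.5% in livers of NN birds, against 50.5% to 58.7% in HN fats and 57.1% to 62.8% in NN fats. The sum was 0.381% to 0.403% of all FPKM in the HN group and 0.654% to 0.892% in the NN group of livers.

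IMPDH2, the enzyme that turns IMP toward GMP, had 83.2, 161 and 126 FPKM in HN livers, 104, 107 and 158 in NN livers, 45.2, 49.0 and 46.3 in HN fats and 45.5, 40.0 and 46.9 in NN fats. It had the smallest ratio of the genes that were higher in liver, 2.64 in HN birds (adjusted p = 0.00241) and 2.79 in NN birds (adjusted p = 0.000208). HPRT1 salvages free hypoxanthine and guanine back to IMP and GMP and so competes with XDH for hypoxanthine. It had 1.54, 3.01 and 3.31 FPKM in HN livers, 2.68, 3.72 and 3.09 in NN livers, 20.6, 23.3 and 21.85 in HN fats and 19.7, 17.6 and 21.6 in NN fats. HPRT1 was the only gene of the 9 that was lower in liver, 8.36-fold in HN birds (log2 difference -2.70 ± 0.227, adjusted p = 6.1e-05) and 6.20-fold in NN birds (-2.31 ± 0.138, adjusted p = 5.1e-06). The level of PPAT over that of HPRT1, the first enzyme of synthesis against the salvage enzyme, was 7.60 to 38.0 in livers of HN birds and 16.0 to 20.7 in livers of NN birds, against 0.280 to 0.330 in HN fats and 0.286 to 0.363 in NN fats.

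XDH, the enzyme that makes urate, had 40.3, 119 and 33.6 FPKM in HN livers, 67.3, 66.2 and 106 in NN livers, 0.72, 2.11 and 2.39 in HN fats and 0.46, 1.41 and 1.65 in NN fats. The HN liver numbered 2 was the highest of all 6 livers, HN and NN livers overlapped, and every liver lay far above every fat. GLUL, which joins ammonia to glutamate, had 189, 790.5 and 194 FPKM in HN livers, 147, 405 and 248 in NN livers, 65.1, 86.9 and 53.6 in HN fats and 70.4, 66.1 and 57.9 in NN fats. The HN liver numbered 2 was highest here too, and no liver overlapped a fat. Liver was above fat by 4.40 ± 0.500 (adjusted p = 0.000248) for XDH and 2.18 ± 0.549 (adjusted p = 0.0102) for GLUL on the log2 scale in HN birds. Without the HN liver numbered 2 they were 3.85 for XDH and 1.5 for GLUL (adjusted p = 0.00018 and 0.00197), and the ratio of GLUL means was 2.79 in place of 5.71. In NN birds the differences were 5.23 ± 0.273 (adjusted p = 2.7e-06) for XDH and 1.91 ± 0.330 (adjusted p = 0.00124) for GLUL. The log2(FPKM + 1) scale understates the ratio of a gene as low as XDH in fat.

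By level, ATIC came first in HN livers, followed by GLUL and ADSL, whose ranges overlapped, then IMPDH2, PAICS, GART, XDH and PPAT, each overlapping the next, and last HPRT1. In NN livers the order was ATIC, ADSL, GLUL, GART, IMPDH2, PAICS, XDH, PPAT and HPRT1, and neighbours overlapped from GLUL to PPAT. HN fats had ATIC and GLUL first, which overlapped, then IMPDH2, then PAICS, ADSL and HPRT1, which overlapped, then GART, PPAT and XDH. In NN fats no neighbours overlapped in the order ATIC, GLUL, IMPDH2, ADSL, PAICS, HPRT1, GART, PPAT and XDH. ATIC was thus first and XDH last in fat, where HPRT1 stood above GART and PPAT.

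In the test of liver against fat, 8 of 9 genes rose in liver and 1 fell on each diet, where 14.8% of the 12511 tested genes rose and 50.7% fell in HN birds and 16.6% of 12492 rose and 59.4% fell in NN birds. The median log2 difference of the 9 genes was 2.48 in HN birds and 3.04 in NN birds, beside -0.64 and -0.65 over all tested genes. Relative to that shift HPRT1 stayed lower in liver, and with median-ratio scaling, which moved the median of all genes to 0.01 in both, the split was 29.7% higher and 28.3% lower in HN birds and 32.4% higher and 31.9% lower in NN birds. The direction and the call of all 9 genes were the same with both scalings tried. Each gene also separated the 3 livers from the 3 fats, to which an exact permutation test of 3 against 3 gives its smallest two-sided p, 0.1. All livers were above all fats in 16.5% of tested genes in HN birds and 17.7% in NN birds, and below them in 54.3% and 60.8%.

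The genes around the pathway were taken as 9 lists of 100 symbols, of which 74 genes were found, and described without a test of the lists. The counts of each list stand beside the shares over all tested genes. These were 14.8% higher and 50.7% lower in liver in HN birds, and 16.6% and 59.4% in NN birds. PRPP supply split by isoform. PRPS2, a PRPP synthetase, had 948, 578 and 573 FPKM in HN livers, 1249, 1359 and 909 in NN livers, 2.09, 1.43 and 2.63 in HN fats and 1.11, 4.29 and 2.64 in NN fats. PRPS1, the other synthetase (its identifier is named PRPS1L1 in GRCg7b), ran the other way, with 9.21 to 15.72 FPKM in HN livers, 11.35 to 13.90 in NN livers, 52.44 to 60.49 in HN fats and 49.66 to 51.90 in NN fats. The log2 difference of liver over fat was 7.82 for PRPS2 and -2.02 for PRPS1 in HN birds, and 8.39 and -1.95 in NN birds, all past the threshold. PRPSAP1 and PRPSAP2, which bind the synthetases, were lower in liver by 1.19 to 1.28 on the log2 scale. With median-ratio scaling or quantile normalization PRPSAP1 no longer passed in HN birds (adjusted p = 0.092 and 0.10).

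Salvage genes other than HPRT1 did not share a direction. Of 5 tested genes 1 rose and 3 fell in liver on each diet, where 50.7% of all tested genes fell in HN birds and 59.4% in NN birds. With median-ratio scaling 2 rose and 2 fell on each diet. ADK, which phosphorylates adenosine, was 26.2-fold higher in liver in HN birds and 28.8-fold in NN birds. APRT, which salvages adenine, was 5.93-fold lower in liver in HN birds and 5.99-fold lower in NN birds. Beside it, HPRT1 was 6.20-fold lower in NN birds and 8.36-fold lower in HN birds. The diet difference of HPRT1 in liver minus that in fat was -0.39 on the log2 scale (limma adjusted p = 0.998). Its ratios on the diets were thus not shown to differ. SLC29A1, a nucleoside transporter, was 2.89-fold lower in HN birds and 2.97-fold lower in NN birds. Both scalings kept these directions and calls. DGUOK, a mitochondrial kinase of deoxyguanosine for which the more abundant of its identifiers was used, overlapped between the tissues and passed only with the other scalings.

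Among breakdown genes 1 of 9 rose and 5 fell in HN birds, and 1 rose and 7 fell in NN birds. Of all tested genes 50.7% fell in HN birds and 59.4% in NN birds. With median-ratio scaling 3 breakdown genes fell in HN birds and 4 in NN birds. NT5C2, a cytosolic nucleotidase that acts on IMP, was 2.85-fold higher in HN livers and 2.33-fold higher in NN livers than in fats of the same diet. ADA, which deaminates adenosine, was 10.5-fold lower in liver in HN birds and 9.04-fold lower in NN birds. AOX1 and NT5C3A were lower in liver by 1.21 and 1.00 on the log2 scale in HN birds, calls that neither other scaling kept, and by 2.46 and 1.10 in NN birds, where the other scalings kept AOX1 but not NT5C3A. Of the urate transport list 4 genes were tested. SLC2A9, a urate transporter, had 14.18 to 28.53 FPKM in HN livers, 27.28 to 36.28 in NN livers, 0.23 to 1.47 in HN fats and 0.62 to 1.79 in NN fats and was the 1 that rose in liver. SLC16A9 fell, with 0.37 to 1.24 FPKM in livers of HN birds and 1.13 to 1.92 in livers of NN birds, against 37.64 to 38.24 in HN fats and 37.62 to 59.36 in NN fats. ABCG2 and ABCC4, urate exporters, also fell, by 0.65 and 1.17 on the log2 scale in HN birds and 1.24 and 1.06 in NN birds. ABCG2 in HN birds turned to 0.10 with median-ratio scaling, which also lost the calls of ABCC4 there (adjusted p = 0.0713) and of ABCG2 in NN birds (adjusted p = 0.0612). Of the calls of ABCG2 and ABCC4, quantile normalization kept that of ABCG2 in NN birds, and both scalings kept the calls of SLC2A9 and SLC16A9.

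**Figure D2:**
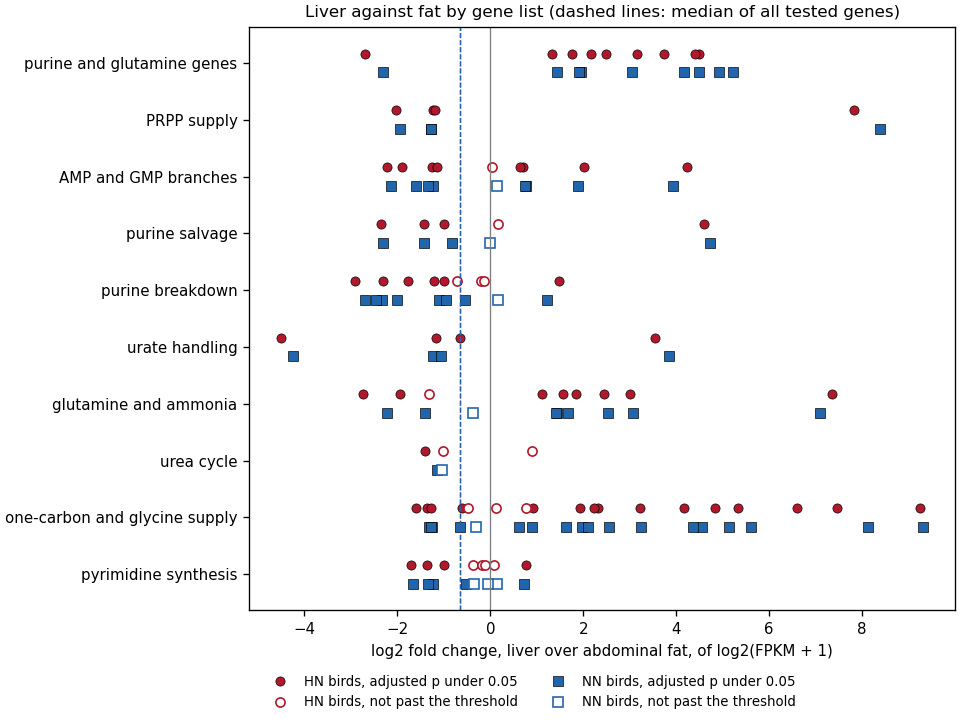
Log2 difference of liver over abdominal fat of each tested gene (x axis) in the 9 purine and glutamine genes and 9 neighbouring lists, HN birds as circles and NN birds as squares, filled where the adjusted p was under 0.05, with dashed lines at the median of all tested genes (-0.64 and -0.65). In the top row 8 genes lie above 1 and HPRT1 below -2, while each of the lists below it spreads to both sides of the median except the short urea cycle list in NN birds.

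In the branches to AMP and GMP 4 of 9 genes rose and 4 fell on each diet. Of all tested genes 14.8% rose and 50.7% fell in HN birds, and 16.6% rose and 59.4% fell in NN birds. With median-ratio scaling 5 of the 9 rose and 2 fell in HN birds, and 5 rose and 4 fell in NN birds. AK4 (21.9-fold in HN birds and 17.3-fold in NN birds) and AK3 (4.35-fold in HN birds and 3.88-fold in NN birds), mitochondrial adenylate kinases, rose in liver, and NME2, a nucleoside diphosphate kinase, rose 1.56-fold in HN birds and 1.68-fold in NN birds. Of the glutamine and ammonia genes 6 of 9 rose and 2 fell on each diet. SLC38A3, a glutamine transporter, had 159.9 to 241.9 FPKM in livers and 0.11 to 0.41 in fats. GLUD1, glutamate dehydrogenase (named GLUD2 in GRCg7b), rose 5.78-fold in HN birds and 6.11-fold in NN birds, GOT2, the mitochondrial aspartate aminotransferase, rose 3.65-fold in HN birds and 3.29-fold in NN birds, and its cytosolic counterpart GOT1 3.02-fold in HN birds and 2.76-fold in NN birds.

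One-carbon and glycine genes, which provide the formyl groups and the glycine of the ring, rose in 11 of 18 cases and fell in 4 in HN birds, and rose in 13 and fell in 4 in NN birds. Of all tested genes 14.8% rose and 50.7% fell in HN birds, and 16.6% rose and 59.4% fell in NN birds. The median log2 differences of the list were 2.08 in HN birds and 2.04 in NN birds. PSPH, the phosphatase that ends serine synthesis, had 2416 to 6820 FPKM in livers of HN birds and 5017 to 11148 in livers of NN birds, against 4.63 to 7.60 in HN fats and 5.98 to 21.25 in NN fats. PHGDH, which starts serine synthesis, was 222-fold higher in liver in HN birds and 398-fold in NN birds, SHMT1, which makes glycine from serine, 34.5-fold in HN birds and 24.0-fold in NN birds, and GCSH of the glycine cleavage system 9.76-fold in HN birds and 9.88-fold in NN birds. Of 8 urea cycle genes 4 were found and the rest were not analysed here. In liver CPS1 was at 0.16 to 0.53 FPKM and did not reach the mean of 1 FPKM required for testing, SLC25A15 was at 0.36 to 1.21 FPKM, and ARG2 was under 1 FPKM in every library but the HN liver numbered 2 (15.18). ASS1 was well expressed, with 7.85 to 72.52 FPKM in HN livers, 9.98 to 34.93 in NN livers, 52.91 to 87.25 in HN fats and 30.32 to 52.97 in NN fats, and livers and fats overlapped. Pyrimidine synthesis had 1 of 8 genes higher in liver in both diets and 3 lower in HN birds and 4 in NN birds. With median-ratio scaling 3 of them were higher and 1 lower in HN birds, and 3 higher and 3 lower in NN birds. UCK1, a uridine kinase, rose 1.74-fold in HN birds and 1.67-fold in NN birds, CMPK1 fell 2.07-fold in HN birds and 2.50-fold in NN birds, and CTPS1 and DHODH did not pass. With median-ratio scaling both passed with a higher level in liver, CTPS1 at 0.56 and DHODH at 0.80 in HN birds and 0.65 and 0.86 in NN birds on the log2 scale, and the fall of CMPK1 in HN birds no longer passed.

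The effect of the diet on these genes in liver was asked by setting the 3 HN livers against the 3 NN livers. None of the 9 genes passed the adjusted test, and none of the 11278 tested genes did (0.0%), while 1349 genes had an unadjusted p under 0.05, 3.42% of the tested genes with a higher and 8.54% with a lower level in HN livers. ADSL, ATIC and GART had the largest differences, each with all HN livers below all NN livers: ADSL averaged 322 ± 71.8 FPKM in HN livers and 788 ± 199 in NN livers, ATIC 1848 ± 205 in HN livers and 3319 ± 408 in NN livers, and GART 91.3 ± 16.5 in HN livers and 158 ± 23.0 in NN livers (SD, n = 3 each). The log2 difference was -1.28 for ADSL (95% interval -1.87 to -0.69, adjusted p = 0.382), -0.84 for ATIC (-1.23 to -0.45, adjusted p = 0.382) and -0.79 for GART (-1.25 to -0.32, adjusted p = 0.392). They were also the 3 of 9 genes with a lower level at an unadjusted p under 0.05 (none had a higher one), and the 3 of 9 whose HN livers lay wholly below the NN livers, where 15.0% of all tested genes did. In one fit of all 12 libraries, which shares 1 estimate of spread over both tissues, ADSL passed (adjusted p = 0.0351) along with 32 other genes.

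**Figure D3:**
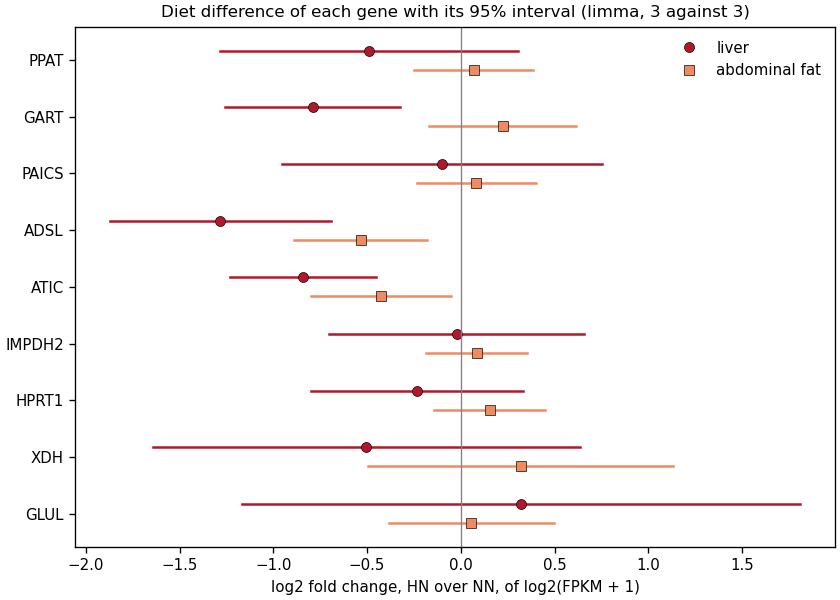
Log2 difference of HN over NN (x axis, of log2(FPKM + 1)) for the 9 genes in liver (circles) and abdominal fat (squares), with lines for the 95% interval from limma. In liver the intervals of GART, ADSL and ATIC lie below 0, in fat those of ADSL and ATIC, and no difference passed after adjustment over all genes.

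The other 6 genes overlapped between HN and NN livers. PPAT averaged 43.5 ± 16.9 FPKM in HN livers and 59.3 ± 15.3 in NN livers, a log2 difference of -0.49 with a 95% interval of -1.29 to 0.31. For PAICS the difference was -0.10 (-0.95 to 0.75), for IMPDH2 -0.02 (-0.70 to 0.66) and for HPRT1 -0.23 (-0.80 to 0.33), and PAICS and IMPDH2 turned to 0.01 and 0.08 with median-ratio scaling. XDH and GLUL had wide intervals, -0.50 (-1.64 to 0.63) and 0.32 (-1.17 to 1.81). Without the HN liver numbered 2 the difference of GLUL turned to -0.36 and that of XDH was -1.06. In all 8 of 9 genes had a lower mean on this scale in HN livers, with a median of -0.49 beside -0.06 over all tested genes.

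**Figure D4:**
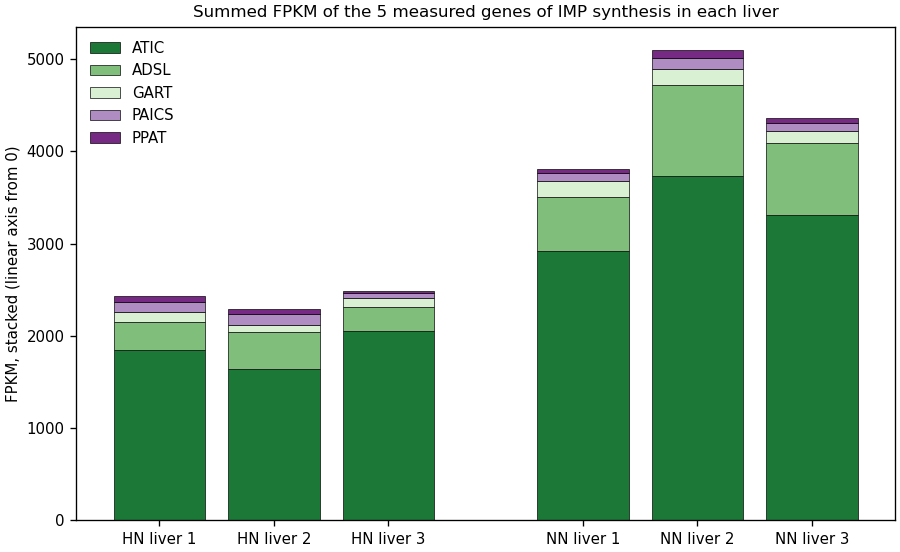
FPKM of the 5 measured IMP enzymes stacked for each liver (linear axis from 0), HN livers on the left and NN livers on the right. The sums are 2287 to 2487 FPKM in HN livers and 3813 to 5094 FPKM in NN livers, and ATIC and ADSL fill most of each bar.

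The sum of the 5 IMP enzymes was 1.84-fold lower in HN livers than in NN livers, and most of this gap was in ATIC and ADSL, the largest parts of it. Some cell type markers differed between HN and NN livers, in both directions. At an unadjusted p under 0.05 (limma), 8.54% of all tested genes were lower and 3.42% higher in HN livers. Every HN liver lay below every NN liver in 15.0%, and the share with every HN liver above is not reported here. By either rule 1 of 11 tested hepatocyte markers, 1 of 6 adipocyte and 1 of 8 leukocyte markers were lower. Higher by either rule were 1 of 11 hepatocyte, 1 of 6 adipocyte and no leukocyte markers. The 12 hepatocyte markers overlapped in sum (100080 to 102590 FPKM in HN livers against 100610 to 108280 in NN livers), but ALB was lower in every HN liver (19544 to 32466 against 37626 to 55672 FPKM) and HPX higher in every one (9412 to 12833 against 4070 to 7955 FPKM). The 7 adipocyte markers summed to 264 to 339 FPKM in livers of HN birds and 191 to 236 in livers of NN birds, a gap that lay in CIDEC (165.7 to 250.9 against 71.2 to 123.0 FPKM), while 4 of the 6 tested had a lower mean and LPL was lower in every HN liver (5.47 to 10.80 against 11.34 to 14.58 FPKM). Of the 7 bile duct and stellate markers DES, ACTA2 and COL1A1 were higher and EPCAM lower in every HN liver, with sums of 102 to 131 FPKM in livers of HN birds and 106 to 125 in livers of NN birds. At an unadjusted p under 0.05, 3 of these 7 were higher and 1 lower, beside 3.42% and 8.54% of all tested genes. The 8 leukocyte markers found (of 10) summed to 580 to 1341 FPKM in livers of HN birds and 678 to 1014 in livers of NN birds, with PTPRC lower in every HN liver. The 8 proliferation markers, all found, summed to 38.3 to 82.3 FPKM in livers of HN birds and 38.5 to 46.0 in livers of NN birds, and none of these lists had a gene at 0 in all libraries. Of the 7 proliferation markers tested, 6 had a higher and 1 a lower mean log2 level in HN livers, with a median of 0.52 beside -0.06 over all tested genes. The 6 erythrocyte markers found (of 11) summed to 169 to 930 FPKM in livers of HN birds and 101 to 413 in livers of NN birds. All 3 tested had a higher mean log2 level in HN livers, with a median of 0.96. None of these 3 had an unadjusted p under 0.05, and their HN and NN livers overlapped. None of these markers passed the adjusted test of the diet, and their part in the values of ATIC, ADSL and GART was not tested.

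In abdominal fat ADSL and ATIC were again the genes with every HN value below every NN value, which held for 2 of the 9 genes and 6.81% of all tested genes. ADSL averaged 23.0 ± 3.68 FPKM in HN fats and 33.6 ± 3.72 in NN fats, and ATIC 81.0 ± 11 in HN fats and 109 ± 15.5 in NN fats (SD, n = 3 each). On the log2 scale the differences were -0.53 (95% interval -0.89 to -0.18, adjusted p = 0.799) for ADSL and -0.42 (-0.80 to -0.05, adjusted p = 0.799) for ATIC. Among all 12394 tested genes 2.29% had a lower and 2.39% a higher level at an unadjusted p under 0.05 and 1 gene (0.00807%) passed the adjusted test, LOC107057175, which is no member of the pathway and was named after its values were seen. The remaining 7 genes overlapped, with differences between 0.06 for GLUL and 0.32 for XDH, and the median of the 9 was 0.08 beside -0.07 over all tested genes. GART was not lower in HN fats, at 9.31 ± 1.85 FPKM against 7.73 ± 0.131 in NN fats (0.22, 95% interval -0.17 to 0.61).

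Marker levels differed between the diets in fat as well, though none of the markers passed the adjusted test of the diet. The 12 hepatocyte markers summed to 3564 to 7863 FPKM in HN fats and 8638 to 10605 in NN fats, mostly APOA1. Among the 11 tested, 10 had a lower and 1 a higher mean log2 level in HN fats. Their median was -0.59 beside -0.07 over all tested genes. At an unadjusted p under 0.05, 3 of the 11 were lower, beside 2.29% of all tested genes. The ranges of the diets did not overlap for 4 of the 11, with HN lower, beside 6.81% of all tested genes. For 9 of the 12, the level in fat was 0.0371% to 0.206% of that in liver in HN birds and 0.101% to 0.317% in NN birds. The others were higher, APOA1 at 13.4% in HN birds and 31.6% in NN birds and TF at 1.53% and 2.39%. CPS1, nearly absent from liver, was at 39.8% and 27.6%. ADSL in fat was at 7.14% of its liver level in HN birds and 4.26% in NN birds, and ATIC at 4.38% in HN birds and 3.29% in NN birds. Adipocyte markers overlapped in sum (14630 to 17154 against 15768 to 20060 FPKM), and LPL was lower in every HN fat. Erythrocyte markers summed to 306 to 1817 FPKM in HN fats and 424 to 1183 in NN fats. All 3 tested had a lower mean log2 level in HN fats, with a median of -0.09 beside -0.07 over all tested genes. Proliferation markers summed to 63.9 to 117 FPKM in HN fats and 53.7 to 68.8 in NN fats. All 8 had a higher mean log2 level in HN fats, with a median of 0.84 beside -0.07 over all tested genes. Of them 6 had an unadjusted p under 0.05, where 2.39% of all tested genes had a higher level at that p. Bile duct and stellate markers summed to 982 to 2850 FPKM in HN fats and 781 to 975.2 in NN fats, mostly COL1A1. All 5 tested had a higher mean log2 level in HN fats, 2 of them at an unadjusted p under 0.05, beside the same 2.39% of all tested genes. Their part in the values of ADSL and ATIC was not tested beyond these levels.

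Whether the diet acted differently in the tissues was tested as the diet difference in liver minus that in fat, over all 12 libraries. GART had the largest such value of the 9 with an unadjusted p under 0.05, -1.01 (95% interval -1.56 to -0.46, adjusted p = 0.694), followed by ADSL at -0.75 (-1.40 to -0.10, adjusted p = 0.998). ATIC was at -0.42 (-0.91 to 0.08). XDH, whose liver-over-fat ratio was 37.0 in HN birds and 67.9 in NN birds, had -0.82 (-2.21 to 0.56), so the ratios of the diets were not shown to differ. None of the 9 genes and none of 12544 genes passed (0.0%, limma), with 570 genes (4.54%) at an unadjusted p under 0.05, 2.5% of the tested genes with a negative value and 2 of the 9. In the fit with a block, a liver and a fat of the same diet and number were joined, a pairing that was not established. There 4 genes passed, none of them a purine gene. The diet, tissue and interaction tests share libraries with each other and are not independent.

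Among the neighbouring genes no gene passed the adjusted test of the diet in either tissue. PRPS2, the liver synthetase of PRPP, averaged 699.8 FPKM in HN livers and 1172 in NN livers, a log2 difference of -0.76 (SE 0.259, adjusted p = 0.399), and the groups overlapped. In PRPP supply 1 of 4 genes (PRPS2) had a lower level in HN livers at an unadjusted p under 0.05, in one-carbon and glycine supply 3 of 16 a lower and 1 a higher level, in breakdown 1 of 8 (NT5E) a lower level, and none in salvage, the AMP and GMP branches, urate handling, glutamine and ammonia, the urea cycle or pyrimidine synthesis. Over the 9 lists 7.69% of 65 tested genes had a lower and 1.54% a higher level at that p, beside 8.54% and 3.42% of all tested genes, shares near the background. In one-carbon supply these were MTHFD1, which makes the formyl donor of purine synthesis and had 116, 112 and 107 FPKM in HN livers and 146, 158 and 168 in NN livers, MTHFD2, AMT and, higher, FTCD. NT5E and these 4 were named after their values were seen. FTCD, which feeds the breakdown of histidine into the folate pool, had 69.0, 268 and 66.2 FPKM in HN livers and 50.3, 42.9 and 25.1 in NN livers, and its highest value was again the HN liver numbered 2. In fat the genes at an unadjusted p under 0.05 were ASS1, UCK2 and MTHFD2 with a higher level in HN fats and PRPSAP2 with a lower one (adjusted p = 0.799 each), 4.76% and 1.59% of 63 tested genes beside 2.39% and 2.29% of all, UCK2 and MTHFD2 also named after their values were seen.

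Across the 12 libraries the genes whose log2(FPKM + 1) followed each member most closely were those with the same split of liver and fat. Pearson's r, given as a description since the points share 2 tissues, was 0.997 for ATIC with LOC421740. GART was followed by CETP (0.998) and ENO1 (0.997), ADSL by LOC416086 and ACAT1 (both 0.989), PPAT by ACO1 (0.990) and CTH (0.989), and PAICS by GPT2 (0.989), an alanine aminotransferase, and OVCH2 (0.983). XDH was followed by RHOBTB1 and RIPK4 (both 0.990) and IMPDH2 by GM2A (0.984) and SLC17A9 (0.982). HPRT1, the gene higher in fat, was followed by OXCT1 (0.997), which fat and other tissues use to burn ketone bodies, and CAMK2G (0.996). GLUL stood alone, with only 5 genes at r of 0.95 or more, of which MIB2 (0.966) and RNF128 (0.965) came first, whereas ATIC had 799 such genes and HPRT1 2446.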

How the data were processed

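RNA of liver and abdominal fat was sequenced on the BGISEQ-500 platform, and the submitters' notes name HISAT2 2.0.4, Bowtie2 2.2.5 and RSEM 1.2.12. The genome build is not given in the sources used here, so no coordinates are printed. The authors deposited 1 table per library with FPKM per gene (2 decimals), already scaled for transcript length and library size. Read counts were not used here, and the depth of each library is unknown, so no counting interval is given. Of 18332 genes, 298 were at 0 in all libraries. Gene names were taken from the tables, and neighbouring genes from RefSeq's GRCg7b gene table.

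Groups came from the labels. A gene entered a fit if its libraries averaged 1 FPKM or more, and was compared by limma 3.58.1 (R 4.3.3) on log2(FPKM + 1), with lmFit, eBayes with a trend and two-sided tests, adjusted after Benjamini and Hochberg across every gene in the fit, and called at an adjusted p under 0.05. An exact permutation test was run for the 9 genes and the genes found of the neighbouring lists, not for the markers or the correlated genes. Levels, ratios and exact tests were made with pandas 2.3.3 and numpy 2.4.6 under Python 3.11.15, and figures with matplotlib 3.10.9. The fit was also run on simulated data with noise drawn independently for each gene and library, and no result here rests on that run. Alternatives were a pseudocount of 0.1, no filter, quantile normalization, median-ratio scaling, the replicate block, 1 fit of all libraries and each library left out. The labels do not say that a liver and a fat with the same number come from 1 bird. Their deviations from the group means correlated in every pair (0.121 to 0.398 in HN birds and 0.234 to 0.295 in NN birds). HN liver 3, however, correlated more with HN fat 1 (0.192) than with HN fat 3 (0.121). The pairing of the tissues was thus not established. It was used only in the replicate block, and the main fits treated all libraries as independent.

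The 10 members and the neighbouring lists were chosen with earlier results of these data known. All members found are described, along with up to 4 genes of each list, those with the highest mean FPKM, and the 2 genes most correlated with each member. Some genes that this rule names are not reported here.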

Additional observations from a re-analysis of the deposited data

Results flagged for a closer look

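MTHFD2, a mitochondrial enzyme of one-carbon supply named after its values were seen, was lower in all HN livers (9.11, 6.37 and 9.82 FPKM) than in all NN livers (12.4, 11.01 and 16.98 FPKM) and higher in all HN fats (7.04, 11.9 and 4.95 FPKM) than in all NN fats (3.93, 2.66 and 4.34 FPKM). The diet difference in liver minus that in fat was -1.51 on the log2 scale (95% interval -2.38 to -0.64), with an unadjusted p of 0.00279 in limma that did not pass after adjustment over all genes (adjusted p = 0.744). No other gene of the 10 lists moved in opposite directions without overlap in both tissues. MTHFD2 was picked for this pattern, so its interval and p are no separate support for it. How many of all tested genes had the same pattern was not counted.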

How the results depend on the processing

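The calls of all 9 genes in liver against fat were unchanged under each of the 12 alternatives on both diets, the replicate block included. In the diet tests 98 of 108 values of single genes in liver and 105 of 108 in fat kept their direction and their side of the threshold, as did 147 of 153 for the interaction. One fit of all 12 libraries gave 33 genes in liver, 1 of them a purine gene (ADSL), in place of 0, and 0 in fat in place of 1. Median-ratio scaling turned PAICS to 0.01 and IMPDH2 to 0.08 in liver. With each library left out the diet difference ran from -0.33 to 0.29 for PAICS, -0.38 to 0.01 for HPRT1, -0.24 to 0.23 for IMPDH2 and -0.36 to 0.68 for GLUL in liver, and from -0.01 to 0.19 for PAICS and -0.13 to 0.22 for GLUL in fat. The interaction then ran from -0.42 to 0.21 for PAICS, -0.32 to 0.15 for IMPDH2 and -0.41 to 0.62 for GLUL, and its count of genes from 0 to 4 (2 without HN liver 1, 4 without HN liver 3 and 2 without HN fat 3), none a purine gene. ADSL had an adjusted p of 0.0351 to 0.751 in liver and 0.215 to 0.999 in fat over its alternatives, ATIC 0.0699 to 0.805 and 0.378 to 0.999, and GART 0.113 to 0.823 in liver. Median-ratio scaling moved the genes at an unadjusted p under 0.05 to 800 higher and 575 lower in liver (386 and 963 without it) and to 372 higher and 195 lower in fat (296 and 284), and quantile normalization to 468 higher and 667 lower in liver. With median-ratio scaling over the 12 libraries, the summed level of the 9 genes was 4028 FPKM in HN livers (2983 without), 6122 in NN livers (4895), 224 in HN fats (285) and 231 in NN fats (311). The cause of these changes was not tested.

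HN and NN libraries of the same number come from different birds. Their deviations correlated at -0.040 to 0.399 in liver and 0.041 to 0.229 in fat. Whether the numbers mark some other link between them is not known. With the replicate block, 0 genes passed in liver and 1 in fat for the diet, 8545 in HN birds (8202 without) and 9669 in NN birds (9491 without) for the tissue, and 4 for the interaction in place of 0 (LOC100857622, LOC101748650, APOF and THRSPB, named after their values were seen). For the tissue and the interaction, the block joined a liver and a fat of the same diet and number. That pairing was not established. The block changed no call of the 9 genes. FPKM gives no depth, so the error of low values such as XDH in fat is known only from the spread of 3 libraries.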
